A study of Mus musculus with 36 samples.

Results

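The histone mark H3K79me2 was profiled by ChIP-seq (immunoprecipitation of chromatin, then sequencing) in small-intestinal crypts of mice, and its peak lists from fasted animals are compared here with those from fed animals. The libraries were chosen by their labels, fasted pools 2 and 5 and fed pools 1 and 4, which are 4 of the 36 samples of the series. Their lists hold 79787 of the 590372 peaks of the 32 deposited lists. Fasted mice were without food for 24 h with free access to water, and fed mice had free access to food and water over the same time. All animals were 6 to 12 weeks old and of the label wildtype, males and females were pooled, and the labels name Lgr5EGFP-IRES-CreERT2/+ and C57BL/6J mice without saying which went into which pool. A replicate is a pool of crypts taken from 4 mice. Crypts of both conditions were isolated and cross-linked in the presence of 100 nM trichostatin A, a histone deacetylase inhibitor, and the medium also held a TGF-β receptor kinase inhibitor and the ROCK inhibitor Y-27632. Whole crypts entered the assay, so a list mixes all cell types of the crypt, and a change in their proportions cannot be told apart from a change within a cell type.

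H3K79me2 is a methylation in the globular core of histone H3, not on its tail. In mammals it is written by DOT1L, an enzyme that travels with complexes of the elongating RNA polymerase II, and it therefore lies over the first part of transcribed genes, just downstream of promoters that carry H3K4me3. Genes silenced by Polycomb, which carry H3K27me3, generally lack it. Crypts hold the intestinal stem cells, Paneth cells and dividing progenitors, and fasting raises the ketone body β-hydroxybutyrate, from which the histone acylations H3K9bhb and H4K12bhb of the same pools are derived.

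The H3K79me2 lists differed more between pools of 1 condition than between the means of the conditions. Fasted pools 2 and 5 gave 14129 and 31246 peaks, against 571 and 33841 in fed pools 1 and 4. These peaks covered 18.7 and 89.5 Mb in the fasted pools, against 0.568 and 91.9 Mb in the fed pools. Both pools 4 and 5 had long lists, and fed pool 1 had the shortest of all. The 2 fasted pools averaged 22688 ± 12104 peaks and the 2 fed pools 17206 ± 23525 (SD over n = 2 pools). Their ratio was 1.32 (SD 1.94) and the two-sided exact permutation p was 1. An exact permutation test of 2 pools against 2 cannot go below p = 0.33. Length covered averaged 54.1 ± 50.1 Mb over the fasted pools and 46.2 ± 64.6 Mb over the fed pools (SD over n = 2 pools), with a ratio of 1.17 (SD 1.96) and an exact permutation p of 1. The peak number ratio was 0.670 without fed pool 1 and 0.821 without fasted pool 5, so that its direction rests on single libraries. Without fed pool 4 it was 39.7.

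Peaks were also short in the 2 short lists. The median width was 1125 and 1676 bp in fasted pools 2 and 5, against 880 and 1573 bp in fed pools 1 and 4. Fasted pools 2 and 5 had 3 and 1300 peaks of 10 kb or more, and fed pools 1 and 4 had 0 and 1322. A peak's score is the authors' peak caller value and ranks peaks only within a list. Scores reached 100 or more for 32.5% and 65.4% of peaks in the fasted pools, against 5.25% and 61.7% in the fed pools. A peak list carries no read totals, so the depth behind these values is unknown. Depth, antibody yield and the amount of the mark cannot be told apart in these files.

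**Figure D1:**
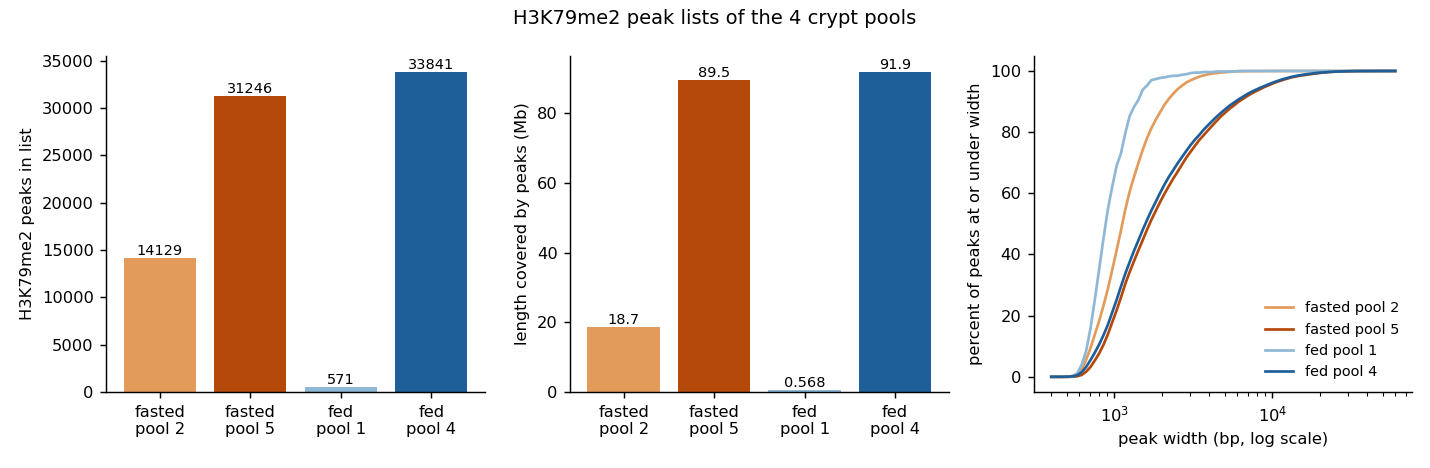
Number of H3K79me2 peaks (left), length they cover in Mb (middle) and cumulative distribution of peak width in bp on a log axis (right) for the 4 pools, each 1 library. The lists of fasted pool 5 and fed pool 4 hold 31246 and 33841 peaks and have almost the same widths, whereas those of fasted pool 2 and fed pool 1 hold 14129 and 571 shorter peaks.

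For that reason fasted pool 5 and fed pool 4 are compared as the main pair, and fasted pool 2 and fed pool 1 are used as support. With 1 library a condition the pair has no replicate check and no test. The file names give both pools the prefix 11, and fasted pool 2 and fed pool 1 the prefix 10. Under the prefix 10 the ratio of peak numbers, fasted over fed, was 24.7, and under the prefix 11 it was 0.923.

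Between the main pair the H3K79me2 landscape was largely shared. Of the peaks of fasted pool 5, 24361 (78.0%) met a peak of fed pool 4, and 25336 (74.9%) of the peaks of fed pool 4 met one of fasted pool 5. The shared length was 71.0 Mb, which is 79.3% of the length in fasted pool 5 and 77.3% of that in fed pool 4. A further 18.5 Mb were called in fasted pool 5 alone and 20.9 Mb in fed pool 4 alone. The peaks of both pools merged into 32620 regions, of which both pools called 17239 (52.8%). Fasted pool 5 alone called 6882 regions, 21.1% of all, and fed pool 4 alone called 8499, 26.1% of all. The longer list had more regions of its own. When the same number of top-scoring peaks was taken from both lists, the counts were 7474 in fasted pool 5 alone and 6943 in fed pool 4 alone, so the order of the counts turned.

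The regions called in 1 pool were short and of low rank. Their median length was 1041 bp in fasted pool 5 alone and 1016 bp in fed pool 4 alone, while shared regions had a median of 3351 bp and reached 88805 bp. Within its own list the median region of fasted pool 5 alone outscored 22.0% of peaks, and that of fed pool 4 alone 23.0%. Shared regions stood at a median percentile of 64.3 in fasted pool 5 and 66.6 in fed pool 4. The regions of 1 pool lay at a median of 1597 bp, for fasted pool 5 alone, and 2018 bp, for fed pool 4 alone, from the nearest peak of the other pool. A peak of fed pool 4 was less than 1 kb away from 39.03% of the regions of fasted pool 5 alone, and 15.9% lay 10 kb or more from any. For the regions of fed pool 4 alone, 34.17% lay less than 1 kb from a peak of fasted pool 5 and 20.7% lay 10 kb or more away.

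The length of H3K79me2 in shared regions was balanced between the pools. It came to 81.1 Mb in fasted pool 5 and 81.8 Mb in fed pool 4. The median log2 ratio of covered length, fasted pool 5 over fed pool 4, was -0.01, with quartiles at -0.25 and 0.23. A length of at least 2 times that of the other pool was found in 715 regions for fasted pool 5, 4.15% of the shared regions, and in 689 for fed pool 4, 4.00%. The score percentiles of the 17239 shared regions correlated between the pools with a Pearson r of 0.71 and a Spearman rho of 0.76. These are correlations across regions, which are not replicates. The balance was tightest in long regions. The quartiles of the log2 ratio were -0.04 and 0.03 in the 534 shared regions of 20 kb or more, and -0.37 and 0.32 in the 7446 regions of 2 to 5 kb.

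Other marks of the same pools were set beside H3K79me2 to place this pair. The base-pair Jaccard index, the shared over the joint length, was 0.643 for H3K79me2 between fasted pool 5 and fed pool 4. For the other marks of these pools it was 0.499 for H3K4me1, which lies at enhancers and flanks promoters, 0.409 for H4K12bhb, 0.213 for H3K9bhb and 0.173 for H3K27ac, the mark of active promoters and enhancers. It was 0.0689 for H3K27me3 and 0.00640 for H3K4me3, of which fed pool 4 had only 295 peaks. The share of merged regions that fasted pool 5 alone called was 21.1% for H3K79me2, 34.4% for H3K4me1, 71.0% for H3K27ac and 73.3% for H3K9bhb. These values depend on the lengths of the lists, and for fasted pool 2 and fed pool 1, where the H3K79me2 list of fed pool 1 is very short, the order of the marks was another: the index was 0.0153 for H3K79me2, 0.518 for H4K12bhb, 0.396 for H3K27ac and 0.260 for H3K9bhb. No test of the difference between marks is possible with 1 library of each.

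**Figure D2:**
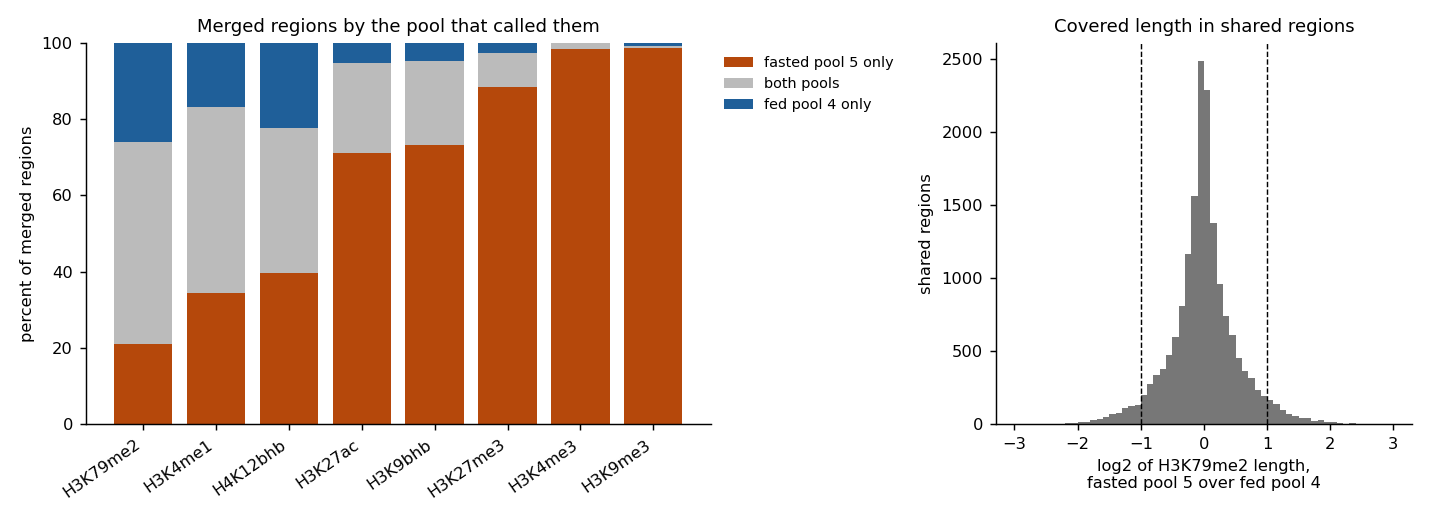
Left, percent of the merged regions of fasted pool 5 and fed pool 4 called by fasted pool 5 only, by both or by fed pool 4 only, for each of 8 marks. Right, number of shared H3K79me2 regions by the log2 ratio of the length covered in fasted pool 5 to that in fed pool 4, with a ratio of 2 either way marked by dashed lines; H3K79me2 has the lowest percentage of regions of fasted pool 5 only among these marks, 21.1%, and the ratios centre on -0.01.

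Across all regions called in 1 pool of the main pair, the remaining pools met both kinds at nearly the same rate. A peak of fasted pool 2 was present in 235 of the regions of fasted pool 5 alone, or 3.41% (Wilson 95% interval 3.01 to 3.87), and in 262 of those of fed pool 4 alone, or 3.08% (2.74 to 3.47). The difference was 0.33 percentage points, with a 95% half-width of 0.56. At shared regions fasted pool 2 had a peak in 35.9%. In base pairs, fasted pool 2 covered 4.91% of the length called in fasted pool 5 alone, 3.63% of that called in fed pool 4 alone and 23.3% of the shared length. Fed pool 1 had a peak in 13 of the regions of fasted pool 5 alone and in 15 of those of fed pool 4 alone. The intervals cover counting error only, and neighbouring regions are not independent of each other.

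The difference was larger, in the same direction, among the highest-ranked of these regions. Among regions whose score percentile in their own list was 75 or more, fasted pool 2 had a peak in 43 of the 66 of fasted pool 5 alone, or 65.2% (53.1 to 75.5), and in 43 of the 111 of fed pool 4 alone, or 38.7% (30.2 to 48.0). Fed pool 1 had a peak in 9 of the 66 and in 6 of the 111. The regions of fasted pool 5 alone in this class were also longer, with a median of 6019 bp, against 3888 bp for those of fed pool 4 alone, and the part of length in the difference was not tested. At percentiles of 50 to 75, fasted pool 2 had a peak in 7.82% of the regions of fasted pool 5 alone and in 4.94% of those of fed pool 4 alone. The division by score was made after the values were seen. Regions of 5 kb or more differed less between the kinds: fasted pool 2 had a peak in 40 of the 41 of fasted pool 5 alone and in 37 of the 42 of fed pool 4 alone, and fed pool 1 in 8 and 8.

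The peaks of both short lists lay mostly in regions that the main pair shared, and mostly in long ones. Of the peaks of fasted pool 2, 12786 (90.5%) met peaks of both fasted pool 5 and fed pool 4, 509 met fasted pool 5 alone, 468 met fed pool 4 alone and 366 (2.59%) met neither. Of the 571 peaks of fed pool 1, 503 (88.1%) met both, 21 met fasted pool 5 alone, 22 met fed pool 4 alone and 25 met neither. Shared regions with a fasted pool 2 peak had a median length of 7176 bp, against 2512 bp for those without. Shared regions with a fed pool 1 peak had a median length of 12911 bp and had median percentiles of 93.4 in fasted pool 5 and 93.2 in fed pool 4. Fasted pool 2 called 7.07% of shared regions of 1 to 2 kb, 62.6% of those of 5 to 10 kb and 99.4% of those of 20 kb or more. Fed pool 1 called 3.14% of shared regions of 5 to 10 kb, 10.3% of those of 10 to 20 kb and 23.4% of those of 20 kb or more, so its list lacked most of the long regions. In the longest class fasted pool 2 broke a region into 6.60 peaks on average, where fasted pool 5 had 2.97 and fed pool 4 had 3.24.

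A few long regions were called in 1 pool of the main pair and wholly missing from the other. Of regions of 10 kb or more, 25 were called in fasted pool 5 alone and 14 in fed pool 4 alone, against 2216 that both called. Fasted pool 2 had peaks in 24 of the 25 regions of fasted pool 5 alone. It also had peaks in all 14 regions of fed pool 4 alone and in 93.8% of the shared regions of this length, so its calls at this length could hardly tell the kinds apart. Fed pool 1, whose whole list held 571 peaks, had a peak in 7 of the 25 regions absent from fed pool 4 and in 6 of the 14 absent from fasted pool 5. It had a peak in 13.4% of the shared regions of this length. H3K4me1 was called by the pool that lacked H3K79me2 in 21 of the 25 and in 14 of the 14. It was common at shared regions too. At those of 10 to 20 kb fasted pool 5 called it in 92.4% and fed pool 4 in 86.7%. At those of 20 kb or more the shares were 99.4% and 96.6%. Another H3K79me2 peak of the lacking pool lay within 20 kb of 20 of the 25 and of 14 of the 14.

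**Figure D3:**
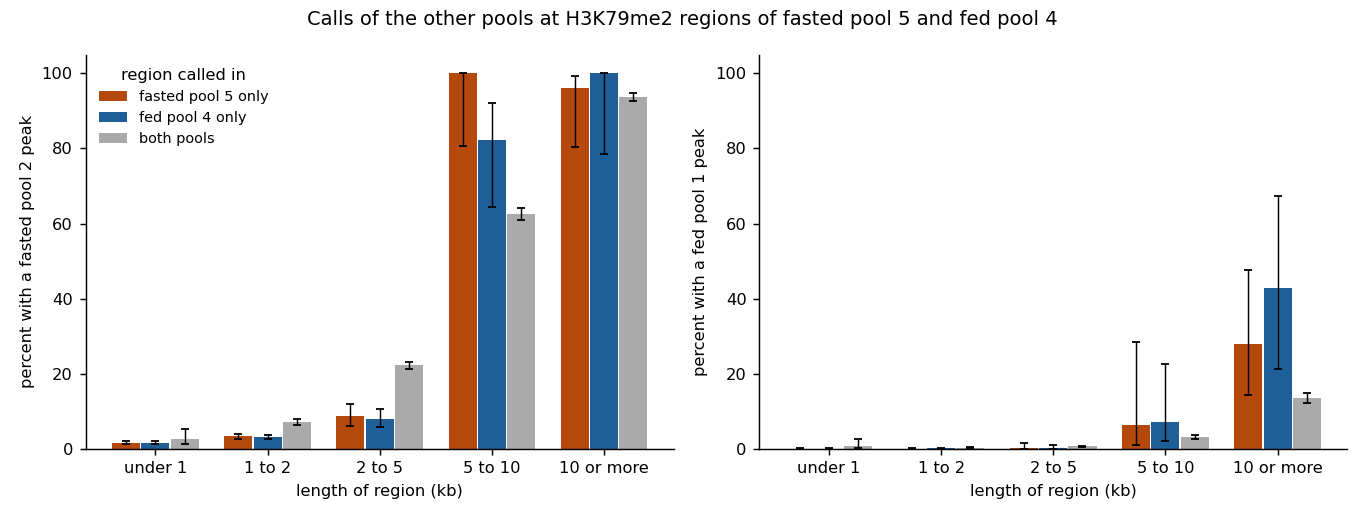
Percent of regions with a peak of fasted pool 2 (left) or of fed pool 1 (right), by the length of the region in kb, for regions called in fasted pool 5 only, fed pool 4 only or both. Bars carry Wilson 95% intervals that cover counting error only; at 10 kb or more fasted pool 2 called 96.0% of the regions of fasted pool 5 only and 100% of those of fed pool 4 only.

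Of the 32620 merged regions, 226 were called by both fasted pools and by neither fed pool, the first kind of named region. These candidates were ranked by the lower of their 2 score percentiles. Fasted pool 2 had a peak in 3.41% of all regions of fasted pool 5 alone and in nearly the same share, 3.08% (262 regions), of those of fed pool 4 alone. The values that follow chose these regions and are a description. Each of the 6 had another peak of fasted pool 5 less than 1 kb away. Each is thus a piece of a longer stretch of H3K79me2 in that pool and not a region standing alone. The first, on chromosome 13 at 9093453 to 9106833 of the mm9 build, was covered over 4677 and 13381 bp in fasted pools 2 and 5 and over 0 bp in both fed pools, and the nearest peak of fed pool 4 lay 13913 bp away. H3K9bhb, H4K12bhb and H3K27ac were called there in all 4 pools. H3K4me1 was called in fed pool 4 over 71.0% of the region, but neither it nor H3K4me3 was called in fed pool 1. A region on chromosome 7 at 91279505 to 91300093 had 13233 and 20589 bp of H3K79me2 in fasted pools 2 and 5 and 0 bp in both fed pools, while H3K4me1 of fed pool 4 covered 86.9% of it. A region on chromosome 4 at 130219250 to 130237693 had 8134 and 18444 bp in the fasted pools and 0 bp in the fed pools, with no peak of fed pool 4 within 15583 bp. A region on chromosome 17 at 85376443 to 85393195 had 8786 and 16753 bp in the fasted pools and 0 bp in the fed pools. A peak of fed pool 4 began 1311 bp from it, and of the other marks only H3K4me1 was called, in pools 5 and 4. The other 2 of the 6, on chromosomes 14 and 19, were covered over 5271 and 7931 bp in fasted pool 2 and over 12007 and 16569 bp in fasted pool 5. The nearest peak of fed pool 4 lay 2205 and 13080 bp from them. Fed pool 1 had a peak within 10 kb of the regions on chromosomes 14, 17 and 19.

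Regions called by fed pool 4 and by neither fasted pool numbered 8237 of the 32620 merged regions, and the 6 of highest rank were 3301 to 5246 bp long. The absence of a fasted pool 2 peak, which the rule asks for, leaves out all regions of fed pool 4 alone of 10 kb or more. None had a peak of fed pool 1. The highest-ranked, on chromosome 4 at 82053198 to 82057746, had 0 bp in both fasted pools, against 0 and 4549 bp in fed pools 1 and 4, and stood at percentile 92.2 of fed pool 4. A peak of fasted pool 2 lay less than 1 kb past its end, and the nearest peak of fasted pool 5 lay 3670 bp away. Other peaks of fed pool 4 lay less than 1 kb from it on either side. The region on chromosome 16 at 35866375 to 35871616 had 0 bp in both fasted pools, against 0 and 5242 bp in fed pools 1 and 4. The nearest H3K79me2 peak of fasted pool 5 lay 64051 bp away, while H3K9bhb, H4K12bhb and H3K27ac were called there in all 4 pools and H3K4me3 in both fasted pools. The region on chromosome 9 at 31714675 to 31719920 had 0 bp in both fasted pools, against 0 and 5246 bp in fed pools 1 and 4, with the nearest peak of fasted pool 5 at 122299 bp. In the other 3, on chromosomes 2, 12 and 17, a peak of fasted pool 5 lay 318, 949 and 375 bp away.

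In the shared regions with the largest differences in length, fasted pool 2 had peaks in both kinds. It covered 63.8, 53.4, 46.0 and 8.73% of the 4 regions with the largest fasted excess. At the 4 with the largest fed excess it covered 64.0, 35.1, 26.1 and 17.3%. Fasted pool 2 had a peak in 92.0% of all shared regions of 10 to 20 kb and in 99.4% of those of 20 kb or more. Its presence at this length could thus hardly tell the kinds apart. The largest excess in fasted pool 5 lay on chromosome 16 at 94792050 to 94851666, where H3K79me2 covered 38039 and 59142 bp in fasted pools 2 and 5, against 977 and 15028 bp in fed pools 1 and 4. On chromosome 6 at 94577629 to 94626931 it covered 26327 and 49303 bp in fasted pools 2 and 5, against 0 and 5937 bp in fed pools 1 and 4. The largest excess in fed pool 4 lay on chromosome 8 at 125476689 to 125507724, with 19873 and 860 bp in fasted pools 2 and 5, against 0 and 31036 bp in fed pools 1 and 4. Here the length in fasted pool 2 was nearer to that in fed pool 4 than to that in fasted pool 5. On chromosome 7 at 71047469 to 71073524 H3K79me2 covered 9154 and 2897 bp in fasted pools 2 and 5, against 0 and 26025 bp in fed pools 1 and 4. The other 2 regions of fasted excess, on chromosomes 11 and 4, had 17896 and 14647 bp more in fasted pool 5, and the other 2 of fed excess, on chromosomes 3 and 1, had a difference of -18447 and -15727 bp.

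The longest shared regions were chosen by the length in the shorter of the 2 pools, which favours regions long in both, and are given as a description. On chromosome 12 at 109153410 to 109242214, 88805 bp long, H3K79me2 covered 39164 and 85363 bp in fasted pools 2 and 5, against 0 and 86265 bp in fed pools 1 and 4. On chromosome 13 at 46956039 to 47025048 it covered 27005 and 66157 bp in the fasted pools, against 999 and 67818 bp in the fed pools. On chromosome 2 at 154617013 to 154683684 it covered 30030 and 65339 bp in the fasted pools, against 757 and 65138 bp in the fed pools. None of the 24 named regions had H3K27me3 or H3K9me3 in any pool. No annotation of the mm9 build was used here, so the regions carry no gene names, and none of their sequence is shown.

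**Figure D4:**
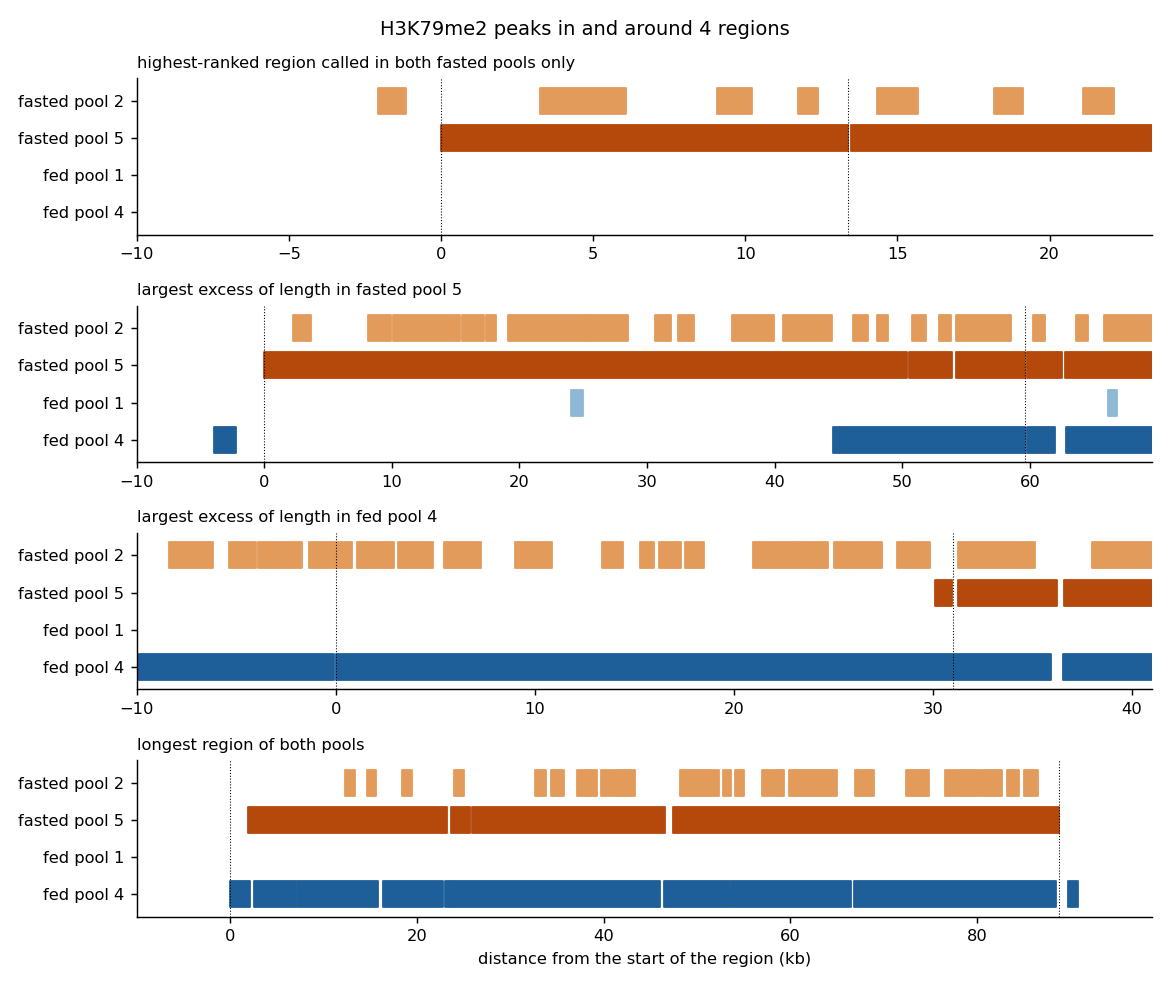
H3K79me2 peaks of the 4 pools as bars along 4 of the named regions and 10 kb on either side, by distance from the start of the region in kb; dotted lines mark the ends of the region. From top to bottom, a region of both fasted pools only (13381 bp in fasted pool 5, 0 bp in fed pool 4), the largest excess in fasted pool 5 (59142 against 15028 bp), the largest excess in fed pool 4 (860 against 31036 bp, with 19873 bp in fasted pool 2) and the longest shared region.

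Most long H3K79me2 domains had H3K4me3 at 1 end, and from there they reached, in the median, nearly the same distance in both pools of the main pair. Peaks of a list were joined across gaps of up to 1000 bp into domains, 17087 in fasted pool 5 and 17831 in fed pool 4, with medians of 2578 and 2435 bp. The longest domain was 154297 bp in fasted pool 5 and 136759 bp in fed pool 4. Of the domains of 3000 bp or more, 4387 of 7730 (56.8%) in fasted pool 5 and 4355 of 7728 (56.4%) in fed pool 4 had H3K4me3 of any pool within 1000 bp of exactly 1 end. Both ends had it in 9.04% in fasted pool 5 and 9.55% in fed pool 4. The left end by coordinate was the one with H3K4me3 in 50.5% and 50.2%.

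The end of a domain that bears H3K4me3 is called its promoter end here, and the opposite one its far end. One-to-one domains of both pools that met these terms numbered 2412, with median lengths of 8138 bp in fasted pool 5 and 8178 bp in fed pool 4. The far end reached further in fasted pool 5 in 1242 (51.5%) and further in fed pool 4 in 1170. The median shift of the far end, fasted pool 5 minus fed pool 4, was 22.5 bp, with quartiles at -571 and 727 bp. A shift of 5 kb or more occurred in 7 domains toward fasted pool 5 and 6 toward fed pool 4. At the promoter end fed pool 4 reached further out in 1597 domains and fasted pool 5 in 811, with a median shift of -135 bp. The median stayed between -117 and -154 bp under the 5 other ways of forming domains that were run. The promoter-end shift has no replicate check, because 1 library stands for each condition.

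These domains were required to be long in both pools, so the H3K79me2 cover near the promoter end is set by that choice and is given as a description. Peaks covered 97.2% of the bin 1000 to 1500 bp downstream in fasted pool 5 and 97.0% in fed pool 4. At 5 kb the cover was 74.6% in fasted pool 5 and 74.5% in fed pool 4, and at 10 kb 43.1% and 43.2%. In the last 500 bp upstream of the promoter end it was 11.5% in fasted pool 5 and 21.9% in fed pool 4, and in the first 500 bp downstream 77.3% and 87.5%. In the support pools the cover was lower throughout, with a maximum of 31.7% in fasted pool 2 and 0.981% in fed pool 1. The other marks were not required in both pools, so their cover is not comparable with that of H3K79me2 in this respect. H3K4me3, which marks active promoters and was used to choose these domains from the lists of all 4 pools, reached 90.3% and 95.3% in fasted pools 2 and 5, against 24.4% and 1.61% in fed pools 1 and 4. Its lists held 15079 and 18429 peaks in fasted pools 2 and 5, against 3430 and 295 in fed pools 1 and 4. Most promoter ends were thus chosen through the fasted lists. The choice itself favours the fasted pools, and the H3K4me3 values are given as a description. H3K27ac reached 92.7% and 97.1% in fasted pools 2 and 5, against 56.8% and 26.9% in fed pools 1 and 4. H3K9bhb reached 58.8% and 69.9% in fasted pools 2 and 5, against 25.5% and 22.9% in fed pools 1 and 4. H4K12bhb reached 77.9% and 64.4% in fasted pools 2 and 5, against 61.8% and 38.5% in fed pools 1 and 4. H3K4me1 reached 17.0% and 70.2% in fasted pools 2 and 5, against 0.209% and 48.9% in fed pools 1 and 4, and here the groups overlapped. H3K27me3 stayed at or under 1.99% in every pool.

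**Figure D5:**
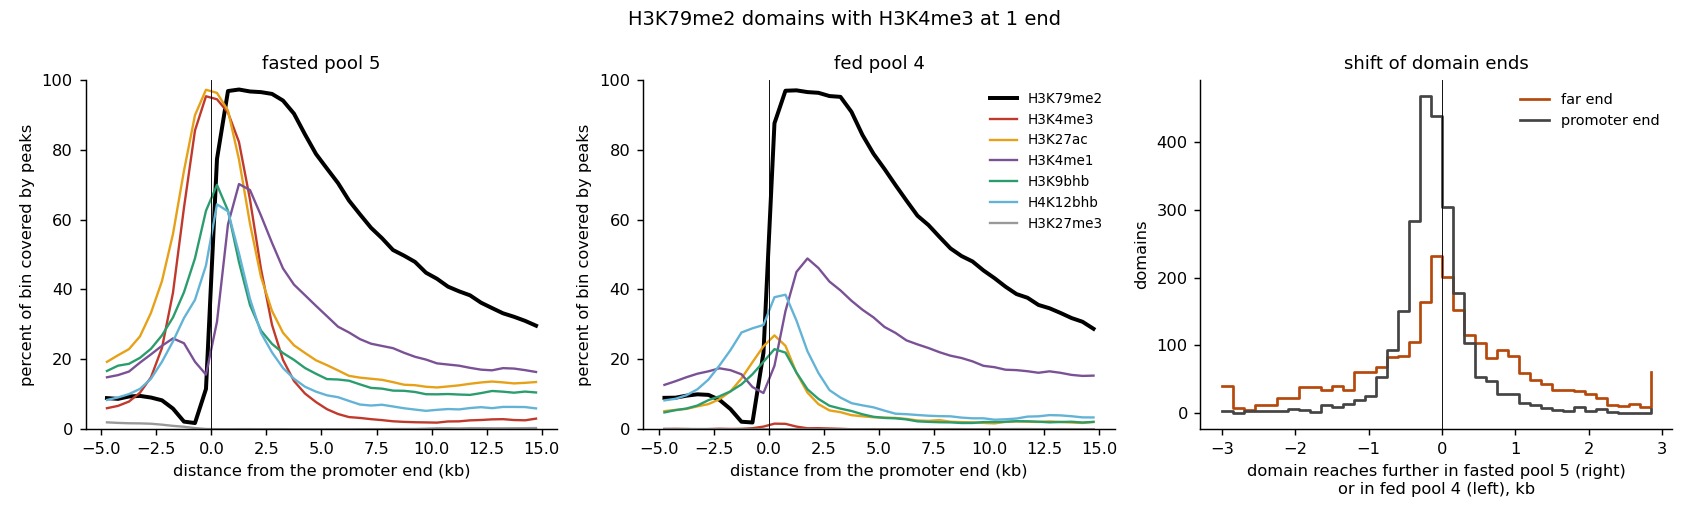
Percent of 500 bp bins covered by peaks of 7 marks around the promoter end of 2412 H3K79me2 domains, from 5 kb outside to 15 kb inside the domain, in fasted pool 5 (left) and fed pool 4 (middle), and number of domains by the shift of either end in kb (right; the outermost bins hold all larger shifts). H3K79me2, by which the domains were chosen in both pools, reaches 97.2% in fasted pool 5 and 97.0% in fed pool 4. H3K4me3 reaches 95.3% in fasted pool 5 and 1.61% in fed pool 4, but most promoter ends were chosen through the longer fasted H3K4me3 lists.

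For H3K4me3, H3K27ac, H3K9bhb and H4K12bhb, both fasted pools had a larger share of H3K79me2 peaks that met the mark of the same pool than either fed pool. The lists of the first 3 of these marks were longer in both fasted pools than in either fed pool, while the H4K12bhb lists held 26252 and 20031 peaks in fasted pools 2 and 5, against 23073 and 16560 in fed pools 1 and 4. H3K4me3 of the same pool met 21.2% and 28.5% of H3K79me2 peaks in fasted pools 2 and 5, against 2.10% and 0.618% in fed pools 1 and 4. The groups did not overlap, at 24.9 ± 5.18% in fasted and 1.36 ± 1.05% in fed crypts (SD, n = 2 each), a difference of 23.5 points (two-sided exact permutation p = 0.33). H3K4me3 lists held 15079 and 18429 peaks in the fasted pools, against 3430 and 295 in the fed pools. H3K27ac met 36.7% and 41.6% of H3K79me2 peaks in fasted pools 2 and 5, against 16.6% and 14.1% in fed pools 1 and 4, a difference of 23.8 points (exact permutation p = 0.33). H3K9bhb met 32.9% and 32.8% in fasted pools 2 and 5, against 14.7% and 13.1% in fed pools 1 and 4, a difference of 18.9 points (exact permutation p = 0.33). H4K12bhb met 32.2% and 26.8% in fasted pools 2 and 5, against 20.3% and 18.8% in fed pools 1 and 4, a difference of 9.89 points (exact permutation p = 0.33). H3K4me1 met 26.97% and 46.48% in the fasted pools, against 1.93% and 40.1% in the fed pools, and here the groups overlapped (exact permutation p = 0.667). Over the 7 marks the Benjamini-Hochberg value was 0.389 at lowest, and 0.33 is the smallest p these 4 pools can give.

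The difference was small once a mark was taken from all 4 of its lists. H3K4me3 of any pool met 25.8% and 29.3% of the H3K79me2 peaks of fasted pools 2 and 5, against 19.6% and 28.1% of those of fed pools 1 and 4. H3K27ac of any pool met 44.6% and 44.4% in the fasted pools, against 38.5% and 44.2% in the fed pools. For H3K9bhb it was 41.5% and 38.5% in the fasted pools, against 36.6% and 38.9% in the fed pools. The differences were 3.71, 3.14 and 2.21 points for H3K4me3, H3K27ac and H3K9bhb. The silencing marks were almost never met. H3K27me3 of the same pool met 1 and 24 H3K79me2 peaks in fasted pools 2 and 5, and 0 in both fed pools. A count of 0 allows a share of up to 0.525% in fed pool 1 and 0.00886% in fed pool 4. H3K9me3 met 1 and 91 peaks in the fasted pools and 0 in the fed pools. H3K27me3 lists held 18259 and 20887 peaks in fasted pools 2 and 5, against 6914 and 3760 in fed pools 1 and 4. H3K9me3 lists held 521 and 4376 peaks in the fasted pools, against 208 and 59 in the fed pools. The fed lists of both marks were shorter, so these counts do not compare the conditions.

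H3K27ac and H4K12bhb called in fasted pool 5 and not in fed pool 4 were about as frequent at H3K79me2 regions of fasted pool 5 alone as at those of fed pool 4 alone. H3K9bhb called in this way was less frequent at the regions of fasted pool 5 alone, with intervals that cover counting error only. H3K9bhb was called in fasted pool 5 and not in fed pool 4 at 11.76% (11.02 to 12.54) of the H3K79me2 regions of fasted pool 5 alone, at 14.59% (13.86 to 15.36) of those of fed pool 4 alone and at 26.02% of the shared ones. For H3K27ac the shares were 18.2% (17.3 to 19.1), 18.4% (17.6 to 19.2) and 35.4%. For H4K12bhb they were 5.62%, 5.33% and 14.2%. H3K4me1 was called in fasted pool 5 and not in fed pool 4 at 10.0% of the regions of fasted pool 5 alone and at 6.78% of those of fed pool 4 alone. In the opposite direction, H3K4me1 of fed pool 4 without fasted pool 5, the shares were 3.02% and 6.93%.

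The balance of the main pair held on the autosomes and was looser on the X chromosome. The covered length of fasted pool 5 over fed pool 4 was between 0.935, on chromosome 7, and 1.01, on chromosome 14. On the X chromosome it was 1.35, with 0.526 Mb in fasted pool 5 and 0.389 Mb in fed pool 4, from 337 and 338 peaks. Of the 442 X regions 33.9% were shared, against 50.1% to 56.1% on the autosomes. Fasted pool 2 and fed pool 1 had 8 and 1 peaks on X. The ratio of covered length was higher on X than on the other chromosomes for 7 of the 8 marks of this pair, for example 208 on X and 4.93 elsewhere for H3K27ac, 92.7 and 3.87 for H3K9bhb, and 5.93 and 1.23 for H3K4me1. These ratios rest on few X peaks of fed pool 4: 6 for H3K27ac, 2 for H3K9bhb and 34 for H3K4me1. In fasted pool 5 the X peaks of these marks numbered 564, 119 and 171. The labels give no ratio of males to females for a pool, and its part in these values was not tested.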

How the data were processed

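The authors deposited a peak list for each library in BED form with 5 columns, the last a score of the peak (unit score). Per the submitters' processing notes, reads were handled with FastQC, Bowtie 1.1.2, SAMtools 1.9 and deepTools 1.5.11 on mm9; the deposited peaks carry no read totals, so depth is unknown. Per the file names, MACS 1 without model building called peaks per library against a second library of the same pool. The sources used here do not give its cut-off. The lowest score in the lists is 50.

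Peaks of fasted pool 5 and fed pool 4 that overlapped or touched were merged, and 1 bp of a pool's peaks called a region for it. A region's score percentile is that of its best peak within its own list. Domains joined peaks across 1000 bp, and H3K4me3 was taken from 4 lists. Shares have Wilson 95% intervals (counting error only). Pools were compared with exact permutation tests. Their p-value is the share of assignments of the pools to 2 groups with a difference of means at least as large as the observed one. Chromosome 18 was left out of the named regions. Those were the 6 of both fasted pools and no fed pool with the highest lower percentile, the 6 of fed pool 4 and no fasted pool with the highest percentile, the 4 shared regions of largest excess either way and the 4 longest in the shorter pool. Comparisons, regions and alternatives were chosen with earlier results of these data known. The gene tables at hand are for another build and were not used. Scripts ran in Python 3.11.15 with numpy 2.4.6, pandas 2.3.3 and scipy 1.17.1, were tested on simulated data, and figures were drawn with matplotlib 3.10.9.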

Additional observations from a re-analysis of the deposited data

Results flagged for a closer look

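The ratio of H3K79me2 peak numbers, fasted over fed, was 24.7 for fasted pool 2 over fed pool 1, whose file names share the prefix 10, and 0.923 for fasted pool 5 over fed pool 4, whose file names share the prefix 11. The ratios lie on opposite sides of 1, which is why they are listed here, and the difference between them was not tested, since each rests on 1 library a condition.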

How the results depend on the processing

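Of 90 recomputed values for 13 results, 9 changed direction and 12 others moved past the limit for a count or a value with no test. The other 69 kept their direction and, for the tested ratios and shares, their side of the threshold, which says nothing of their size, since 2 pools against 2 cannot pass it: the H3K4me3 share difference was 3.71 points with H3K4me3 of any library. The cause was not tested except where named. The peak number ratio, fasted over fed, was 0.821 without fasted pool 5, 0.670 without fed pool 1 and 0.923 within the prefix 11 (0.670 to 39.7 over single pools left out), and the covered length ratio was 0.404, 0.589 and 0.974 (0.404 to 95.3). With scores of 100 or more, regions of fasted pool 5 alone numbered 3971 and of fed pool 4 alone 4141, shared regions at least 2 times longer 434 and 365, and the Jaccard index was 0.651. Merging across 1000 bp gave 3192 and 4189 regions, a Jaccard index of 0.673 and a share difference for fasted pool 2 of -0.105 points. Calling a region only where 50% of it was covered left 1 and 0 shared regions at least 2 times longer, by construction, and gave no Jaccard index. The share difference was 26.4 points at score percentiles of 75 or more and 9.47 points for regions of 5000 bp or more, both chosen after seeing the data. The H3K27me3 share difference was -0.00586 points with any library, and the far-end shift was -12.5 bp with no gap merging. Leaving out single pools gave share differences of 19.8 to 27.2 points for H3K4me3, 21.3 to 26.2 for H3K27ac, 18.1 to 19.7 for H3K9bhb and 0.00708 to 0.0768 for H3K27me3. No paired analysis was possible because fasted and fed pools share no replicate number in the labels, and what the file name prefix stands for is not stated; within the prefix 10 the peak number ratio was 24.7 and the covered length ratio 32.9. List length limits all counts of calls in 1 pool.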

Other observations

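Of the 571 peaks of fed pool 1, 333 (58.3%) overlapped a peak of fasted pool 2, and 25 (4.38%) met neither fasted pool 5 nor fed pool 4. The 24 H3K79me2 peaks of fasted pool 5 that met H3K27me3 of that pool did so over a median of 940 bp and at most 3061 bp, and 12 of them also met H3K4me3. Of the shared regions of 20 kb or more, 80.7% had H3K4me3 in fasted pool 5 and 4.12% in fed pool 4, and none had H3K27me3 in either. H3K4me1 was called at 99.4% of them in fasted pool 5 and at 96.6% in fed pool 4.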
